A study of Mus musculus with 4 samples.

Results

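The immediate early genes examined here were Fos, Fosb, Fosl2, Jun, Junb, Jund, Egr1, Ier2, Arc and Nr4a1, 10 of the 25239 gene IDs in the tables, chosen by symbol from a list of classical members. They were read in retina of the mouse embryo at E13.5 (E, embryonic day) in 4 RNA sequencing libraries, 2 labelled control and 2 labelled Isl1cKO, a conditional loss of the LIM-homeodomain factor Isl1 in which the retina is described as lacking the gene. The recombinase line behind the conditional allele, the genotype of the controls, the strain and the number of embryos per library are not given in the sources used here. The groups are called by their labels, and a pair of values gives replicate 1, then replicate 2. Levels are in TPM, a measure per transcript length with the same total in every library, so levels of different genes can be compared within a library.

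Immediate early genes are transcribed within minutes of a stimulus, without new protein synthesis, when kinases activate transcription factors already bound at their promoters. Fos and Jun proteins pair through leucine zippers to form AP-1, which binds DNA and regulates later genes. In neurons Fos, Egr1 and Arc are widely read as marks of recent activity, and in many tissues the same genes also respond to dissection and enzymatic dissociation. Here the dissected tissue was frozen in Trizol, per the labels' protocols.

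The 4 libraries held between 13554 and 13932 genes at 1 TPM or more, with the fewest in Isl1cKO replicate 2. Isl1, the targeted gene, held 242 TPM in control replicate 1, 201 TPM in control replicate 2, 321 TPM in Isl1cKO replicate 1 and 223 TPM in Isl1cKO replicate 2. It was therefore not lower in the libraries labelled Isl1cKO (log2 fold change 0.28, SE 0.21, adjusted p = 0.683, limma), and every direction below rests on the labels. The tables give 1 value per gene and none per exon, so a transcript that lacks a deleted exon would still be counted, and this level cannot check the labels. A first principal component (63.6% of variance) placed both controls below 0, at -21.8 and -15.8, and both Isl1cKO libraries above 0. Isl1cKO replicate 1, at 7.13, lay between the controls and Isl1cKO replicate 2, at 30.5. The Isl1cKO replicates were farther from each other on it than the controls were. Retinal progenitor markers were abundant in every library, among them Pax6 at 537 to 610 TPM. The ganglion cell marker Gap43 held 877 and 753 TPM in control against 321 and 224 TPM in Isl1cKO. Another, Pou4f2, held 126 and 124 TPM against 135 and 120 TPM. Of the 12 ganglion cell markers read, 10 had a log2 fold change below 0, beside 63.8% of all genes tested. The 2 above 0 were Pou4f2 and Isl1, the targeted gene. The similar level of Pou4f2 therefore does not show a like ganglion cell content. The samples are separate by label only, so p-values measure the spread between these samples, which may be technical.

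The 10 genes fell into 3 levels that held in all 4 libraries. Jund, Jun and Ier2 were at 41.6 TPM or more, Nr4a1 and Junb between 1.73 and 4.41 TPM, and Arc, Egr1, Fosl2, Fos and Fosb below 1 TPM in every library. Jund, Jun and Ier2 together held between 96.8% and 97.5% of the TPM of the 10 genes. The order Jund, Jun, Ier2, Nr4a1, Junb, Arc, Egr1, Fosl2, Fos, Fosb was the same in each of the 4 libraries. Of the 9 neighbouring pairs in that order, 4 had ranges over libraries that overlapped: Jun with Ier2, Arc with Egr1, Fosl2 with Fos, and Fos with Fosb.

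**Figure D1:**
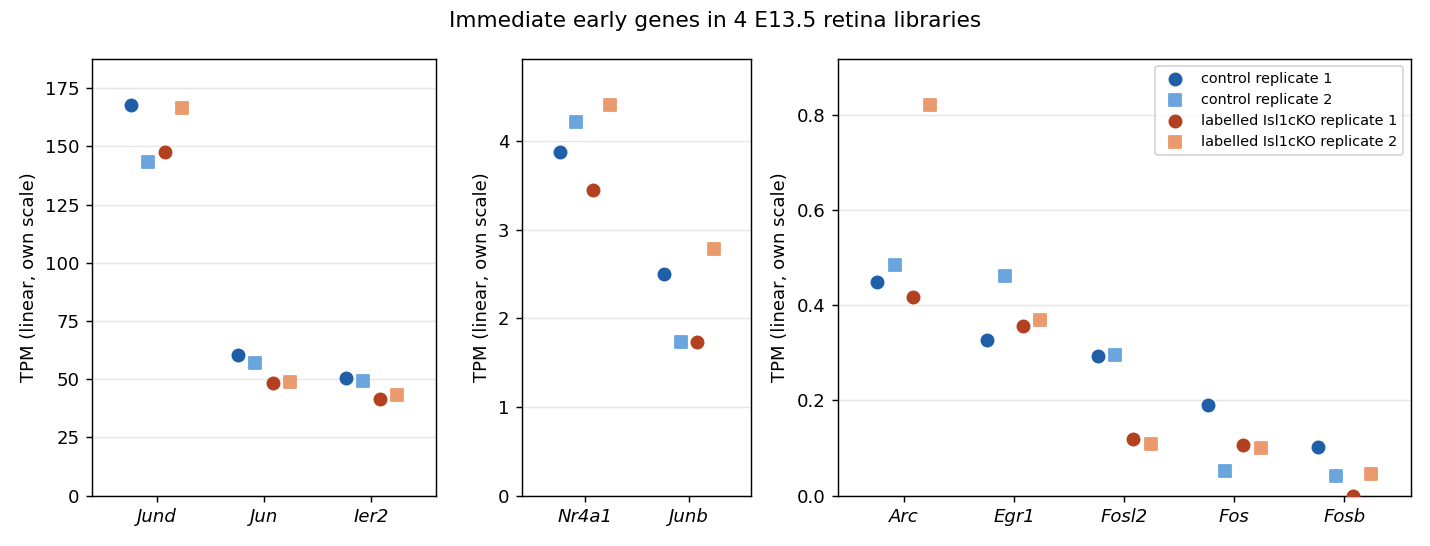
TPM of each immediate early gene in each library, on linear axes with a scale of their own in each of the 3 panels. Blue points are control and orange to red points are labelled Isl1cKO, with circles for replicate 1 and squares for replicate 2. Both Isl1cKO points of Jun, Ier2 and Fosl2 lie below both control points, while the groups overlap for the other 7 genes. Both Isl1cKO libraries lay below both controls in 30.0% of all genes tested. Fosl2, below 0.3 TPM throughout, was not among the genes tested.

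Among the Jun proteins, Jund (chromosome 8, 70697739 to 70700616, plus strand, mm10), the family member that is typically expressed without stimulation, was the highest. It held 168 TPM in control replicate 1, 143 TPM in control replicate 2, 148 TPM in Isl1cKO replicate 1 and 166 TPM in Isl1cKO replicate 2. The groups overlapped, and the replicates of a group differed by more than the group means. Jund ranked between 1014 and 1262 from the top among all genes in the 4 libraries. It made up between 70.9% and 76.4% of the summed TPM of Jun, Junb and Jund.

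Jun (chromosome 4, 95049036 to 95052222, minus strand), the founding member of the family and a transcription factor induced by stress and injury in neurons, held 60.2 and 57.1 TPM in control against 48.2 and 48.7 TPM in Isl1cKO. Both Isl1cKO values lay below both control values. Its share of the Jun family TPM ranged from 22.4% in Isl1cKO replicate 2 to 28.3% in control replicate 2. Junb (chromosome 8, 84976909 to 84978748, minus strand), a Jun protein that activates transcription weakly and can restrain Jun, stood far below both, with 2.50 and 1.73 TPM in control against 1.74 and 2.79 TPM in Isl1cKO. In each group 1 Junb library was higher than the other, and the groups overlapped. The listed position of Jund starts at 70697739, while GENCODE M21 (GRCm38) starts the gene at 70698949. Listed positions of Nr4a1, Junb, Egr1 and Fosl2 also begin elsewhere than in that annotation, that of Nr4a1 at 101266846 against 101254269. Those of Jun, Fos, Fosb and Arc differ from it by a few bases at an end, and that of Ier2 is the same. In that annotation the antisense genes Junos and Gm11175 overlap Jun and Jund on the other strand. No value was listed under either name, and whether reads were assigned by strand is not given in the sources used here.

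The Fos proteins, which need a Jun partner to bind DNA, were near the bottom of the measured range. Fos (chromosome 12, 85473890 to 85477274, plus strand) held 0.190 and 0.0512 TPM in control against 0.107 and 0.1005 TPM in Isl1cKO. The 2 controls enclosed both Isl1cKO values. Mean coverage per base of Fos was between 0.253 and 0.995, so an average base of the gene was read less than 1 time. Between 4.04% and 10.3% of the genes with a TPM above 0 lay below Fos in a library.

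Fosb (chromosome 7, 19302696 to 19310045, minus strand), known for its accumulation after repeated stimulation, stood at 0.103 and 0.0415 TPM in control and was 0.0448 TPM in Isl1cKO replicate 2. It was listed at 0 in Isl1cKO replicate 1. Fosl2 (chromosome 5, 32136472 to 32157839, plus strand), the Fos relative also called Fra2, held 0.294 and 0.295 TPM in control against 0.120 and 0.108 TPM in Isl1cKO. The Isl1cKO values of Fosl2 lay below both controls, at a mean coverage of 0.537 to 1.54 per base. Summed over these 3 genes, the Fos family reached 0.586 and 0.388 TPM in control against 0.226 and 0.254 TPM in Isl1cKO, while the Jun family reached 198 to 230 TPM.

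The proximal promoters of Fos and Jun are shown because these 2 genes encode the classical AP-1 pair and stood far apart in level. Each sequence is the 250 bases before the RefSeq start (GRCm38.p6). RefSeq promoters were matched by symbol for 7 of the 10 genes, all but Egr1, Ier2 and Arc. Capitals mark, on either strand, the cyclic AMP response element core TGACG, the AP-1-like sequence TGACATCA, the GC box GGGCGG, the CCAAT box and the sequence TATAAA; no marked sequence overlaps another.
Fos, chr12:85473640-85473889, plus strand: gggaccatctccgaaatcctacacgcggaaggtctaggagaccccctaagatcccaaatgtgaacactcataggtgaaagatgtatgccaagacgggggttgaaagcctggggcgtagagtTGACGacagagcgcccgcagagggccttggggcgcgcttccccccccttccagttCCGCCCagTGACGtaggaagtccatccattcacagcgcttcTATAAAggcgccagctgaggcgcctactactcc
Jun, chr4:95052223-95052472, minus strand: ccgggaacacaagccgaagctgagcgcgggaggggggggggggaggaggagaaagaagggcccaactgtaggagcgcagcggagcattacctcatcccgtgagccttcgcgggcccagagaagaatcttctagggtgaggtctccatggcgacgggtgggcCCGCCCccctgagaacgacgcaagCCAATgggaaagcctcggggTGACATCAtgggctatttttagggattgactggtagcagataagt
The Fos window holds 2 TGACG cores, 1 GC box and 1 TATAAA. The Jun window holds 1 TGACATCA, 1 GC box and 1 CCAAT box. Of 32851 mouse promoter windows of this length, 17.8% hold TGACG, 2.93% hold TGACATCA, 32.7% the GC box, 33.8% the CCAAT box and 12.4% TATAAA. Neither window holds the AP-1 site TGANTCA, found in 6.75% of the windows, or a CArG box, the binding sequence of serum response factor, found in 1.47%. Sequence farther upstream than these 250 bases was not searched, so sites there would be missed. These matches describe letters only.

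Egr1 and Nr4a1 encode transcription factors outside AP-1. Egr1 (chromosome 18, 34861207 to 34864956, plus strand), a zinc finger factor and standard activity marker, held 0.328 and 0.461 TPM in control against 0.357 and 0.369 TPM in Isl1cKO. Nr4a1 (chromosome 15, 101266846 to 101274794, plus strand), an orphan nuclear receptor also called Nur77, held 3.88 and 4.22 TPM in control against 3.45 and 4.41 TPM in Isl1cKO. For both genes the groups overlapped. Of the pair, Nr4a1 passed the filter of 1 TPM in at least 2 libraries and Egr1 did not.

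Ier2 and Arc stand for other classes of product. Ier2 (chromosome 8, 84661331 to 84662852, minus strand), a small nuclear protein induced by growth factors, held 50.7 and 49.4 TPM in control against 41.6 and 43.4 TPM in Isl1cKO. As for Jun, both Isl1cKO values lay below both controls. Arc (chromosome 15, 74669081 to 74672570, minus strand), an effector at synapses that promotes the removal of glutamate receptors, held 0.449 and 0.484 TPM in control against 0.418 and 0.820 TPM in Isl1cKO. Isl1cKO replicate 2 held the highest Arc value, and the other 3 libraries lay close together.

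The comparison of the libraries labelled Isl1cKO with control asked whether any of these genes differed with the label. None of the 5 genes that passed the filter (Jund, Jun, Ier2, Nr4a1 and Junb) passed limma's threshold of 0.05 on the adjusted p-value, which 0.493% of the 13984 genes tested did. Their adjusted p-values lay between 0.327 and 0.971. The unadjusted p-value was under 0.05 for 2 of the 5, Jun and Ier2, and for 12.1% of all genes tested. These also were the only 2 of the 5 whose groups did not overlap and lay lower in Isl1cKO, as in 30.0% of all genes tested; groups failed to overlap in either direction in 44.9%.

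Jun averaged 58.7 ± 2.23 TPM over the controls, and 48.5 ± 0.332 TPM over the libraries labelled Isl1cKO (SD, n = 2 each). Its log2 fold change on log2(TPM + 1) was -0.27 (SE 0.08, 95% interval -0.48 to -0.06; adjusted p = 0.327, limma). Ier2 averaged 50.05 ± 0.948 and 42.5 ± 1.29 TPM (SD, n = 2 each), with a log2 fold change of -0.23 (SE 0.08, 95% interval -0.44 to -0.02; adjusted p = 0.378, limma). The difference between the groups was thus larger than the spread between replicates for these 2 genes, and neither passed over all genes. Without Isl1cKO replicate 2 the log2 fold changes were -0.28 for Jun and -0.26 for Ier2.

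Jund averaged 155 ± 17.3 TPM over the controls, and 157 ± 13.2 TPM over the libraries labelled Isl1cKO (SD, n = 2 each), a log2 fold change of 0.02 with a 95% interval of -0.31 to 0.34. Nr4a1 averaged 4.05 ± 0.245 and 3.93 ± 0.675 TPM, a log2 fold change of -0.04 with an interval of -0.37 to 0.29. Junb averaged 2.11 ± 0.543 and 2.26 ± 0.743 TPM, a log2 fold change of 0.06 with an interval of -0.50 to 0.62. For these 3 genes the group difference was smaller than the difference between replicates of either group. The sign of each of the 3 changed when 1 library was left out: those of Jund and Junb without Isl1cKO replicate 2 (-0.07 and -0.17) or without control replicate 2 (-0.10 and -0.12), and that of Nr4a1 without Isl1cKO replicate 1 (0.10) or without control replicate 2 (0.0087).

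**Figure D2:**
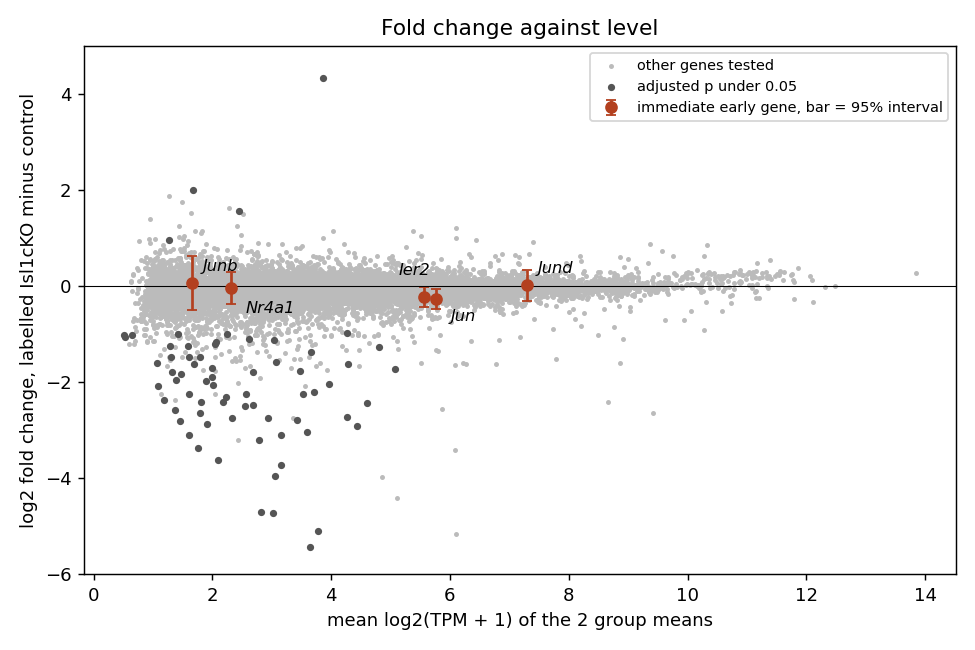
Log2 fold change of the libraries labelled Isl1cKO against control (vertical axis) by mean level as log2(TPM + 1) (horizontal axis) for the 13984 genes tested. Dark points are the 69 genes with an adjusted p-value under 0.05, and orange-red points are the 5 immediate early genes tested, with 95% intervals. All 5 lie between -0.27 and 0.06, and the intervals of Jun and Ier2 exclude 0 before adjustment.

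The 5 tested genes had a median log2 fold change of -0.04, beside -0.05 over all genes tested, and 3 of 5 were below 0, beside 63.8% of all genes. The 5 genes below 1 TPM could be fitted only without the filter, over 19784 genes. In that fit none of the 10 passed the threshold, and Fosl2 had a log2 fold change of -0.22 (SE 0.06; adjusted p = 0.394, limma). Those of Fos, Fosb, Egr1 and Arc were -0.02, -0.07, -0.03 and 0.13, on a scale that compresses values below 1 TPM.

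Replicates of a group were compared as well. The 2 control libraries differed by a median of 0.10 on log2(TPM + 1) over the 5 tested genes, beside 0.09 over all genes tested. The 2 libraries labelled Isl1cKO differed by 0.17, beside 0.14. On the log2(TPM + 1) scale none of the 5 differed by more than 1.5-fold between replicates, which 2.07% of all genes did in control and 5.72% in Isl1cKO. In TPM without the added 1, Junb passed that mark in Isl1cKO, at 1.74 and 2.79 TPM. Junb differed most in both groups, by 0.36 in control and 0.47 in Isl1cKO, and Jun least in Isl1cKO, by 0.01.

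**Figure D3:**
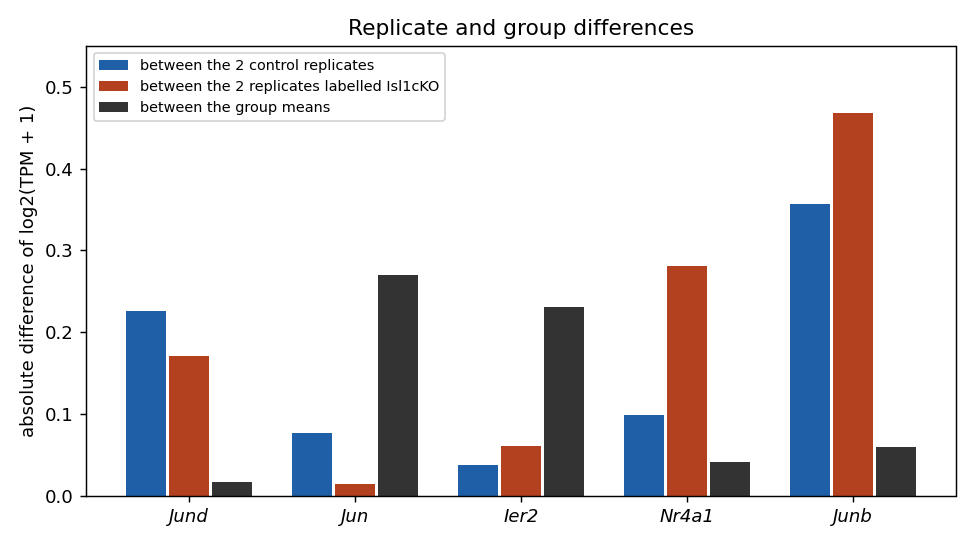
Absolute difference of log2(TPM + 1) for the 5 tested genes between the control replicates (blue), between the replicates labelled Isl1cKO (red) and between the group means (black). The black bar exceeds both replicate bars for Jun (0.27) and Ier2 (0.23) only.

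The wider immediate early response was read from 4 further lists of 79 genes in all, of which 67 were tested. None passed the threshold in limma, which 0.493% of all genes tested did. The unadjusted p-value was under 0.05 for 11 (16.4%, beside 12.1% of all genes), 9 lower and 2 higher. Among other immediate early transcription factors 8 of 16 were tested, and 7 of the 16 lay below 1 TPM in every library. Those included Egr2 and Fosl1, relatives of Egr1 and Fos, which were listed at 0 in both Isl1cKO libraries. In control Egr2 was at 0 and 0.102 TPM and Fosl1 at 0.0218 and 0.0481 TPM, so both were near the floor in either group. Egr4 was listed at 0 throughout.

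Klf6, a zinc finger factor linked to axon growth, held 37.7 and 32.5 TPM in control against 26.3 and 25.0 TPM in Isl1cKO (log2 fold change -0.44, adjusted p = 0.268, limma). Myc, a driver of growth and proliferation, held 9.79 and 13.1 TPM in control against 16.1 and 22.9 TPM in Isl1cKO (0.71, adjusted p = 0.342, limma). Nr4a2, the nuclear receptor Nurr1 and a relative of Nr4a1, stood at 6.49 and 8.87 TPM against 10.8 and 10.5 TPM (0.44, adjusted p = 0.382, limma). The groups did not overlap for these 3 genes, as for 44.9% of all genes tested. Maff, a small Maf factor, was the next by size of change among genes with a mean of at least 5 TPM. Its log2 fold change was -0.09 (adjusted p = 0.884, limma), and its groups overlapped. Below that mean, Jdp2 had the largest change of the tested genes in this list, -0.72 (adjusted p = 0.222, limma). Klf4 and Csrnp1, also below it, had log2 fold changes of -0.27 and 0.094 (adjusted p = 0.327 and 0.767, limma).

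Effectors and feedback genes of the response were mostly well expressed, with 27 of 29 tested, 17 of those below 0 and a median log2 fold change of -0.05. They include the kinase phosphatases Dusp4 and Dusp6, which restrain MAP kinases, and Ier5 and Ier5l, relatives of Ier2. The log2 fold changes of Dusp4, Ier5l, Ier5 and of Rhob, a small GTPase, were -0.35, -0.29, -0.25 and -0.25, with adjusted p-values of 0.524, 0.488, 0.434 and 0.389 in limma. Upstream regulators had a median of -0.10 over 24 tested genes, 17 of them below 0. Srf, the serum response factor, averaged 28.5 TPM in both groups. Mapk10, the neuronal Jun kinase also called JNK3, held 10.3 and 8.92 TPM in control against 7.69 and 6.18 TPM in Isl1cKO (log2 fold change -0.42, adjusted p = 0.352, limma). The log2 fold change of Elk4, a partner of Srf, rests on Isl1cKO replicate 2, which held 5.07 TPM while the other 3 libraries held 11.4 to 13.1 TPM.

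The list of partners and corepressors had the lowest median of the 4, -0.35, with 8 of 8 tested genes below 0. Nab1, a corepressor of Egr proteins, held 19.2 and 17.0 TPM in control against 12.02 and 11.5 TPM in Isl1cKO (log2 fold change -0.58, SE 0.10, adjusted p = 0.153, limma). This was the lowest adjusted p-value of the 67 genes. Over the alternatives that kept every library, the lowest adjusted p-value of any list gene ran from 0.0514 to 0.257 in limma. The 0.0514 came with the replicate number as a block and the 0.257 with no filter. These are minima over all the list genes tested, and are not given as values of Nab1.

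**Figure D4:**
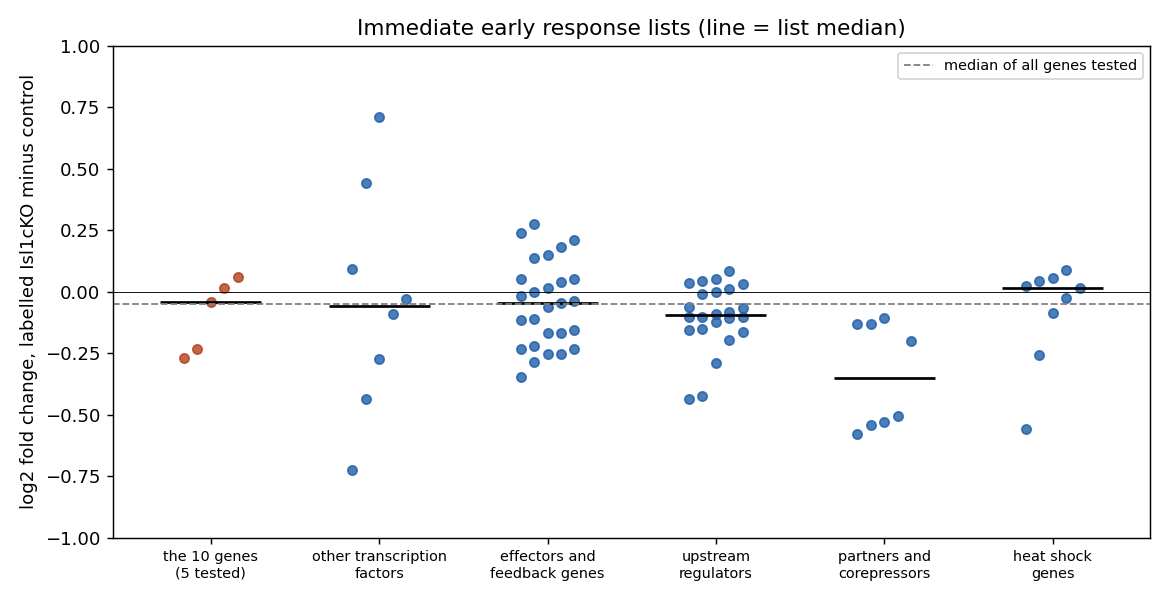
Log2 fold change of every tested gene of the 5 immediate early genes that passed the filter (orange-red) and of 5 further lists (blue), with list medians as black lines and the median of all genes tested (-0.05) as a dashed line. No point passed the threshold, and the list of partners and corepressors has the lowest median, at -0.35.

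Heat shock genes, which also respond to tissue handling, were all 9 tested, with 0 adjusted p-values under 0.05 in limma, 2 unadjusted ones (beside 12.1% of all genes tested) and a median log2 fold change of 0.01. Hspa8, a constitutive chaperone, held 2562 and 2415 TPM in control against 2146 and 2020 TPM in Isl1cKO (-0.26, adjusted p = 0.368, limma). Below a mean of 5 TPM, Hspa1a and Hspa1b had log2 fold changes of 0.09 and -0.03 (adjusted p = 0.865 and 0.928, limma). Hspb1, also below it, had the largest change of the list, -0.56 (adjusted p = 0.203, limma).

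The summed levels of cell type markers are given beside Jun and Ier2; only the lens list held genes that passed the threshold in limma. Ganglion cell markers summed to 3574 and 3035 TPM in control against 1982 and 1395 TPM in Isl1cKO, with 10 of 12 genes below 0, a median of -1.08, 0 calls and 9 unadjusted p-values under 0.05. Over all genes tested, 63.8% were below 0 and 12.1% had an unadjusted p-value under 0.05. Red blood cell markers summed to 2904 and 4170 TPM against 1419 and 205 TPM, with 9 of 9 tested genes below 0, 0 calls and 5 unadjusted p-values under 0.05. Lens markers summed to 217 and 261 TPM against 11.7 and 8.60 TPM, with 8 of 12 called and lower in limma. Calls in either direction made up 0.493% of all genes tested. Microglia markers summed to 54.9 and 56.7 TPM against 69.1 and 83.4 TPM, with 1 of 9 genes below 0, 0 calls and 3 unadjusted p-values under 0.05. Photoreceptor precursor, pigment epithelium, periocular mesenchyme and endothelium markers had 5 of 5, 5 of 6, 5 of 5 and 2 of 2 tested genes below 0, progenitor markers 3 of 8, and amacrine and horizontal cell markers 4 of 6. These lists had no call in limma, and 1, 1, 1, 0, 0 and 1 genes at an unadjusted p-value under 0.05. Their part in the values of Jun and Ier2 was not tested. In bulk tissue, fewer cells of a type and less RNA per cell cannot be told apart.

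The genes most alike in pattern were sought over the 4 libraries, by the root-mean-square difference of centred log2(TPM + 1), among 11322 other genes with a mean of at least 5 TPM. Closest to the mean of the 5 tested genes were Ano10, Sqstm1, Dnaaf2, Gsr and Galnt2, with differences of 0.0073 to 0.013. Closest to Fos were Cbx3, Wdr82, Rps6kc1, Leo1 and Fam234b, with differences of 0.0051 to 0.0073. As a description, both patterns span little on log2(TPM + 1), 0.25 and 0.18, and 3180 and 5244 genes lay within 0.1 of them. For Fos this scale compresses values below 1 TPM. Its TPM ran from 0.0512 to 0.190, so the small span does not show a steady level.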

How the data were processed

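RNA from dissected E13.5 retina was sequenced in 4 poly(A)-selected, strand-specific libraries, per the labels' protocols. The submitters' processing notes name Trimmomatic, FastQC, HISAT2, SAMtools, StringTie and DESeq2 without versions, and the build mm10. The annotation is not given in the sources used here. Per the file headers, each library's table gives coverage per base, FPKM and TPM as deposited by the authors. The deposited TPM sum to 1000000 per library. Depth in reads is unknown. The ratio of deposited coverage to FPKM corresponds to 12.6 to 14.3 gigabases of aligned sequence, so no counting interval was computed.

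TPM were summed over rows of a gene ID (each of the 10 genes had 1 row). Genes with at least 1 TPM in at least 2 libraries were fitted as log2(TPM + 1) with limma 3.58.1 in R 4.3.3 (constant prior, genotype only), with Benjamini-Hochberg adjustment over all genes tested and a threshold of 0.05. Every adjusted p-value comes from limma. The model was tested on simulated data. Alternatives were another pseudocount, no filter, FPKM, median-ratio scaling, a mean-variance trend, the replicate block and each library left out. Every one of the 10 genes is named, with up to 4 genes of largest absolute change per further list at a mean of at least 5 TPM. Srf, Dusp6, Jdp2, Klf4, Csrnp1, Egr2, Egr4, Fosl1, Hspa1a, Hspa1b, Hspb1, Pax6, Gap43 and Pou4f2 were named after their values were seen. The members and lists were chosen with earlier results of these data known.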

Additional observations from a re-analysis of the deposited data

How the results depend on the processing

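Under each of the alternatives (a pseudocount of 0.1 TPM, no filter, FPKM, median-ratio scaling, a mean-variance trend, the replicate block and each library left out) 0 of the immediate early genes tested passed the threshold in limma (10 were tested with no filter, 4 with FPKM and 5 in the others), and 0 of the pathway list genes tested did, a count added after seeing the data. Jun ranged from -0.31 to -0.21 and Ier2 from -0.26 to -0.18 on the log2 scale, with no change of sign. With a library left out, the log2 fold change of Junb ranged from -0.175 to 0.294 and that of Jund from -0.0957 to 0.130; both turned negative without control replicate 2 (Junb -0.119) or Isl1cKO replicate 2 (Jund -0.0684). That of Nr4a1 was 0.00166 with FPKM, 0.00495 under median-ratio scaling, 0.00870 without control replicate 2 and 0.0994 without Isl1cKO replicate 1. With FPKM, Junb fell below the filter and 4 of the genes were tested.

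The count of all genes past the threshold, 69, was 44 at a pseudocount of 0.1, 15 with no filter, 127 with FPKM and 110 with a mean-variance trend, and ranged from 10 to 37 with a library left out, where the lone library is assumed to vary like the other group. As a check of pairing, the departures of the 2 libraries numbered 1 from the mean of their own group had a correlation of 0.126 across genes. No label ties equal numbers to a litter or a day, so the numbers were not taken to pair the samples. With the replicate block 265 genes passed, and 0 of the immediate early genes. Arc, Egr1, Fosl2, Fos and Fosb lay below 1 TPM throughout, where the depth in reads is unknown, so a difference in these genes could not be assessed beyond the values given.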
